A study of Mus musculus with 5 samples.

Results

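Promoter regions marked by H3K27me3 in K27R cells that still held an H3K27me3 peak in K27M or EZHIP cells are described here. H3K27me3 is histone H3 trimethylated at lysine 27, and it was profiled by ChIP-Seq in mouse embryonic fibroblasts (MEFs). A region was taken from the list of H3K27me3 enriched regions of K27R cells when it lay on chromosomes 1 to 19, was narrower than 100 kb and contained the 5′ end of at least 1 protein-coding gene. Such a promoter region was a member when it shared at least 1 bp with an H3K27me3 peak of K27M or EZHIP cells, called a residual peak below. This left 1157 members of 2423 promoter regions (47.8%) and of 12845 K27R regions in all. Membership itself was thus read from the peak lists, and the share that kept a peak is a description.

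The series held 5 H3K27me3 libraries, 1 per group, and the lists of 3 groups were used. All lines came from MEFs of an embryo whose Eed gene, encoding a subunit of Polycomb Repressive Complex 2 (PRC2), was flanked by loxP sites, and the labels name Cre for the EEDnull line alone. K27R cells carried a lentivirus for stable expression of H3.3 K27R, K27M cells one for H3.3 K27M, and EZHIP cells one for human EZHIP (hEZHIP), in each case from an EF1a promoter with puromycin selection by the study's methods. The parental Eed-floxed control and the EEDnull clone, made with Cre from the same cells, were not analysed here. Without replicate libraries or read counts, the depth is unknown, no difference could be set against replicate spread, and the intervals given are 95% intervals that cover counting error only and treat regions as independent. Intervals over gene starts treat neighbouring starts as independent too. RNA was not part of these lists, so that the cell type could not be checked by expression. Of 20 genes typical of fibroblasts, the starts of 19 lay outside the K27R regions. The 1 inside (5%) stands beside 28.2% of all autosomal protein-coding starts, and this count is no check of the cell type.

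PRC2 trimethylates H3K27, and the mark accompanies silencing of developmental genes. In mammals PRC2 is recruited mainly at CpG islands, stretches with many unmethylated CG dinucleotides that often surround gene starts, and the mark then spreads along the chromatin on either side. H3 K27M, the histone mutant of diffuse midline glioma, and EZHIP, a protein of posterior fossa ependymoma, both inhibit the catalytic subunit of PRC2. H3 K27R replaces the same lysine without inhibiting PRC2 in this way.

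The members can be read first in their sequence. The windows below are 300 bases of the mm9 genome that end directly before the gene start, written 5′ to 3′ on the strand of the gene, with every CG in capitals; none overlapped an exon of a protein-coding gene. Ramp2 is shown because both residual lists covered its whole region, and Nkx2-5 because it had the widest shared peak among homeobox genes. Gpr115 is shown from the widest promoter region that kept no peak. Sox2, a gene start inside a CpG island, and Olfr222, the sole olfactory receptor of the promoter regions below 100 kb with a start in a residual peak, were added after their values were seen.
Ramp2, chr11:101107042-101107341, plus strand: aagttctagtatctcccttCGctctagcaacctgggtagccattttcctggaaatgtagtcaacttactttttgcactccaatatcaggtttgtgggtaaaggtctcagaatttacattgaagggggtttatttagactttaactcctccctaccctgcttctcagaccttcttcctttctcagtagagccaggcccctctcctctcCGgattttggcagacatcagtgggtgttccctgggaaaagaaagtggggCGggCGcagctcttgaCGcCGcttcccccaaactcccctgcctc
Nkx2-5, chr17:26978511-26978810, minus strand: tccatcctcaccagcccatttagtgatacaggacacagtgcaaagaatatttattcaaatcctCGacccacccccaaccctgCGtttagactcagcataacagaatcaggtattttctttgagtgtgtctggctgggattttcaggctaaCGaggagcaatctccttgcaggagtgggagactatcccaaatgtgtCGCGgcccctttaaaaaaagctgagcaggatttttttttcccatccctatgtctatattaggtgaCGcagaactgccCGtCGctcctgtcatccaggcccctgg
Sox2, chr3:34548627-34548926, plus strand: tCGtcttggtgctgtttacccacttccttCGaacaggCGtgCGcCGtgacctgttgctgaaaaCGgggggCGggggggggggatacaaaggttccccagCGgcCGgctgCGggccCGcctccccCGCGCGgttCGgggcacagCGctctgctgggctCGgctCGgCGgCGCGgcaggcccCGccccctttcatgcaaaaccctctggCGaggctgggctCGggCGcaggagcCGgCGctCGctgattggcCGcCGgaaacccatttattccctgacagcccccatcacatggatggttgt
Olfr222, chr11:59385316-59385615, minus strand: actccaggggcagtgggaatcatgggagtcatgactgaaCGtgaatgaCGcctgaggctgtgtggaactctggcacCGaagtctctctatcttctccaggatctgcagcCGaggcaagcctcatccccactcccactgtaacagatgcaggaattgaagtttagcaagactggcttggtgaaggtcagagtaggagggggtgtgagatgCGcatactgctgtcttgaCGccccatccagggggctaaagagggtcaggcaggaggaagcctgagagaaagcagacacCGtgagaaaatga
Gpr115, chr17:42829234-42829533, minus strand: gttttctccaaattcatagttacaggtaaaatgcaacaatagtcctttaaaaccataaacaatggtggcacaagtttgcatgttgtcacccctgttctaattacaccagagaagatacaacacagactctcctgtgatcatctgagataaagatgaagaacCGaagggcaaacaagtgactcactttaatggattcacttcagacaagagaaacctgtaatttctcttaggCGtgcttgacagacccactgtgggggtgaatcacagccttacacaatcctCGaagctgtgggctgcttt
The Sox2 window held 30 CG, the Nkx2-5 window 8, the Olfr222 window 7, the Ramp2 window 6 and the Gpr115 window 3. High CG number directly upstream was therefore not shared by all members, and the counts over all starts are given further on.

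The first comparison asked how much of a K27R region remained marked. K27M peaks were found in 969 members, which is 40% of the promoter regions, and EZHIP peaks in 918, which is 37.9%. Both lists had a peak in 730 members (63.1%), K27M alone in 239 (20.7%) and EZHIP alone in 188 (16.2%). In most members less than the full region remained. The covered share of the region had a median of 20.5% for K27M (interval 18.4 to 22.3%, n = 969) and of 14.8% for EZHIP (13.7 to 16.2%, n = 918). The middle part of the members, from the first to the third quartile, ran from 10.5 to 39.7% for K27M and from 8.57 to 28.2% for EZHIP. Residual peaks had a median width of 6 kb in K27M and 4.6 kb in EZHIP, beside a median region width of 43.4 kb. Most members held a lone residual peak, 850 of 969 in K27M (87.7%) and 681 of 918 in EZHIP (74.2%). Nearly all residual peaks lay wholly inside the K27R region, 1047 of 1108 in K27M and 1242 of 1255 in EZHIP.

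The smallest gap between neighbouring peaks was 5200 bp in the K27M list and 1200 bp in the EZHIP list, and some K27R regions touched each other (a gap of 0 bp). The study's methods name a larger maximum gap for joining H3K27me3 regions, so that the settings behind these lists are not known, and widths, covered shares and peak numbers depend on them. With peaks up to 10000 bp apart merged in both lists, the median covered share was 20.9% for K27M and 15.6% for EZHIP. In members with both, K27M peaks covered more of the region in 520 of 730 (71.2%) and EZHIP peaks in 184 (25.2%). All members were selected for holding a peak, and both lists were read within the same K27R regions. In members with both, 86.4% of the EZHIP peak length also lay in K27M peaks and 66.8% of the K27M peak length lay in EZHIP peaks. EZHIP peaks lay wholly within K27M peaks in 435 of these members (59.6%), and the reverse held in 133 (18.2%).

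Promoter regions kept a peak more often than the other K27R regions, and wide regions more often than narrow ones. Among all autosomal K27R regions below 100 kb, 14.6% kept a residual peak, and among those without a gene start 421 of 8360 did (5.04%). Regions without a start were narrower, with a median width of 9.8 kb. Within width bands, promoter regions kept a peak in 23.4% of cases below 10 kb, in 37.1% from 10 to 30 kb and in 60.6% from 30 to 100 kb. Regions without a start did so in 1.48%, 5.65% and 14.3%. Above the width limit, 859 of 1014 promoter regions kept a peak (84.7%). Members had a median width of 43.4 kb (41.8 to 46.4 kb), and the 1266 promoter regions that kept no peak 24 kb (22 to 25.8 kb). A wider region has more room for a peak, so that width enters the rule itself. By chromosome the kept share ranged from 33.0% of 88 promoter regions on chromosome 14 to 62.0% of 92 on chromosome 15.

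The main question was where in the region the residual peak lay. A gene start lay in a K27M peak in 778 of the 969 members with one (80.3%, 77.6 to 82.8%), and in an EZHIP peak in 632 of 918 (68.8%, 65.7 to 71.8%). The residual peak thus lay over a gene start in most members of either list. Among all 1157 members, a start lay in peaks of both lists in 520 (44.9%), in a K27M peak alone in 258 (22.3%), in an EZHIP peak alone in 112 (9.68%) and in no residual peak in 267 (23.1%). Members with a peak in K27M only had the start in it in 182 of 239 cases (76.2%, 70.2 to 81.4%). Members with a peak in EZHIP only did so in 91 of 188 (48.4%, 41.1 to 55.8%). In the members with both lists, the shares were 81.6% for K27M and 74.1% for EZHIP. Members with 1 and with more gene starts had overlapping intervals: with 1 gene start the share was 80.9% for K27M and 68.4% for EZHIP, and with 2 or more starts it was 78.8% and 69.7%. In region width bands it was 79.7%, 87.6% and 77.6% for K27M and 65.9%, 73.8% and 67.6% for EZHIP, from narrow to wide.

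**Figure D1:**
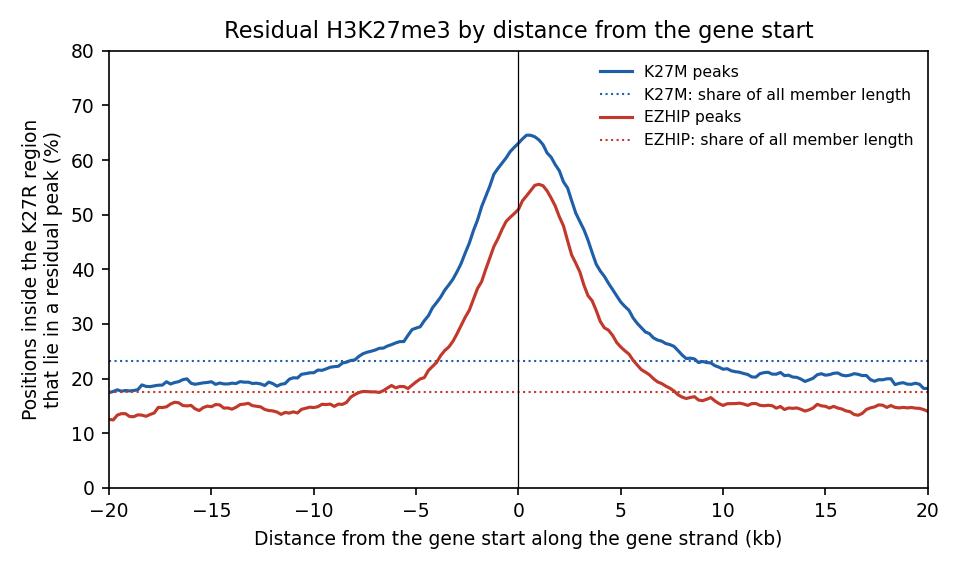
Share of positions that lay in a K27M (blue) or EZHIP (red) peak, in percent, against the distance from the gene start in kb along the gene strand, over members with a peak of that list and only where the position was still inside the K27R region. Dotted lines give the share of all member length in peaks (23.3% for K27M, 17.6% for EZHIP), and both curves are highest just downstream of the start and lie under their dotted line at 20 kb on either side.

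Gene starts lay in a residual peak more often than the summed length of the members did. At the start, 63.1% of 1441 gene starts lay in a K27M peak, while K27M peaks took up 23.3% of the summed length of the same members, a ratio of 2.71 (2.60 to 2.82). For EZHIP 51.0% of 1407 gene starts lay in a peak against 17.6% of the length, a ratio of 2.90 (2.75 to 3.05). These intervals treat the covered length as exact and gene starts as independent, although starts of the same region share its peaks. The summed length includes the starts and gives wide regions more weight, so that the ratio does not compare a start with its own region. With each member counted equally, the mean covered share was higher, 27.6% for K27M and 20.8% for EZHIP. The curves over distance from the start peaked downstream of it, at 0.4 kb for K27M (64.6%) and at 1 kb for EZHIP (55.5%). At 5 kb upstream, 29.2% of positions lay in a K27M peak and 19.4% in an EZHIP peak, and at 5 kb downstream 34% and 25.8%. At 20 kb the shares were 17.4% upstream (n = 671) and 18.2% downstream (n = 737) for K27M, and 12.5% (n = 711) and 14.0% (n = 757) for EZHIP. Only regions that reach that far are counted there, so that the set of regions changes with distance.

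Residual peaks reached farther into the gene than away from it. The midpoint of the nearest peak lay a median of 0.59 kb downstream of the start for K27M (0.48 to 0.67 kb) and 0.57 kb for EZHIP (0.48 to 0.71 kb). K27M peaks over a start reached a median of 2.94 kb upstream and 3.82 kb downstream, and EZHIP peaks 2.31 kb and 3.30 kb. The downstream reach was the longer in 511 of 778 K27M members (65.7%, 62.2 to 69.0%) and in 420 of 632 EZHIP members (66.5%, 62.6 to 70.1%). For genes with 1 annotated transcript start the share was 63.3% of 398 for K27M and 66.6% of 332 for EZHIP. Whether further starts inside genes bear on the downstream reach was not tested. The K27R region around a lone start also reached farther downstream in 463 of 810 members (57.2%, 53.7 to 60.6%). In the promoter regions that kept no peak it did so in 508 of 1045 (48.6%, 45.5 to 51.7%).

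**Figure D2:**
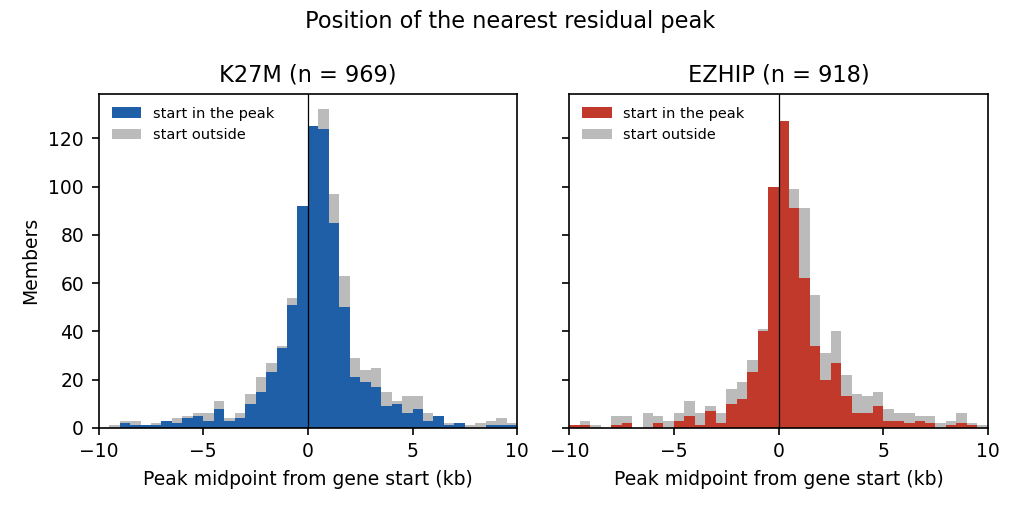
Number of members by the position of the midpoint of the nearest K27M (left) or EZHIP (right) peak, in kb from the gene start along the gene strand and in bins of 0.5 kb, with peaks over a start coloured and others grey. The tallest bars lie at or just downstream of 0; midpoints beyond 10 kb, 98 of 969 for K27M and 96 of 918 for EZHIP, lie outside the axis.

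Peaks that missed the start were often close to it. Counting those over the start, 87.6% of nearest K27M peaks had an edge within 1000 bp of a start and 94.0% within 10000 bp, and for EZHIP the shares were 80.4% and 91.8%. The 191 K27M members without a start in the peak had it at a median edge distance of 2.57 kb (1.41 to 4.21 kb), downstream in 124 (64.9%). The 286 EZHIP members had it at 2.20 kb (1.41 to 3.44 kb), downstream in 188 (65.7%). These peaks were narrower, with a median of 3.4 kb against 7 kb over the start for K27M and 3 kb against 6 kb for EZHIP. By annotation, 49.7% of the off-start K27M peaks touched an exon of a protein-coding gene, 8.90% lay in introns alone and 41.4% outside protein-coding genes. For EZHIP the shares were 42.3%, 19.2% and 38.5%. Another transcript start of a protein-coding gene lay in 13.1% of the off-start K27M peaks and in 11.2% of those of EZHIP.

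Members were ranked by the distance from a gene start to the nearest residual peak of either list. The farthest lay 71.2 kb upstream of Sult1c1 in both lists, 61.1 kb downstream of Gm10874 in EZHIP, 59.8 kb upstream of Gm14496 in K27M and 50.7 kb (K27M) or 50.9 kb (EZHIP) downstream of Slc26a3, a chloride and bicarbonate exchanger of the gut. To see whether reads could be placed there, 31-base words were taken every 10 bp and looked up in mm9. In the Sult1c1 region 0.0227% of words occurred once in the genome, in the Gm14496 region 54.3% and in the Gm10874 region 74.2%, against a median of 93.1% over the members. The Gm10874 peak lay 15.1 kb from the start of a Zfp157 transcript. Slc26a3 had 94.6%, and its residual peak lay 3.32 kb (K27M) or 3.52 kb (EZHIP) downstream of another annotated start of a Slc26a3 transcript. The sequences of the outermost Slc26a3 start and of the 300 bases of its residual peak with most CG, written on the plus strand, are given to compare a start that was bare with the place that kept the mark.
Slc26a3 start, chr12:32075436-32075735, plus strand: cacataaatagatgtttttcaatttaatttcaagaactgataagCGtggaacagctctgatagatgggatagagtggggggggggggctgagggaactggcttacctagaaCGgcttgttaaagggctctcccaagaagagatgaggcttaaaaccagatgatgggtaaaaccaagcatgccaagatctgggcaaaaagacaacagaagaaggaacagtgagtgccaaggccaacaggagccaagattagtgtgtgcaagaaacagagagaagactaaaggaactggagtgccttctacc
Slc26a3 residual peak, chr12:32128871-32129170, plus strand: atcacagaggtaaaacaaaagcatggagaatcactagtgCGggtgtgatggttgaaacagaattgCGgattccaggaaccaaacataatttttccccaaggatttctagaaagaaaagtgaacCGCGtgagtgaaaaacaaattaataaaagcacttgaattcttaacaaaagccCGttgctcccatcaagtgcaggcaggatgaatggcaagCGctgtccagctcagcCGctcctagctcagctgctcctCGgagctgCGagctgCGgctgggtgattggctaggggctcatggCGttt
The start window held 2 CG and the window in the peak 11, although the window in the peak was chosen for its CG number and the region contained 0 CpG islands. The study aligned with bowtie1 at default settings, which report 1 place for a read with several. In 18 members (1.56%) and in 57 of the regions without a residual peak (4.50%) under 50% of words occurred once; how such reads bear on the peaks was not tested.

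Sequence was not part of the rule, and members differed from the other promoter regions in their CG content. A CpG island lay in 1009 of 1157 members (87.2%, 85.1 to 89.1%) and in 536 of 1266 promoter regions without a residual peak (42.3%, 39.6 to 45.1%). The difference was present in each width band: 88.6% against 46.3% below 10 kb, 89.0% against 41.0% from 10 to 30 kb, and 86.4% against 41.6% from 30 to 100 kb. Read the other way, promoter regions of 30 to 100 kb kept a peak in 76.1% of 892 cases with an island and in 26.4% of 406 without. Below 10 kb they did so in 36.8% of 190 and 6.08% of 148.

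The start sites followed the same order. CpG density was counted in 500 bp on each side of the start. It had a median of 5.84 CG per 100 bp at 594 starts in both residual peaks (5.59 to 6.29), 5.69 at 315 starts in a K27M peak alone (5.19 to 6.09) and 4.60 at 123 starts in an EZHIP peak alone (4.10 to 5.49). It was 2.80 at 681 starts of members that lay in no residual peak and 1.70 at 1604 starts of regions without one. All 21392 autosomal protein-coding starts had a median of 4.20, which is under that of the starts in both peaks and above that of the regions without a peak. The intervals of the first and second group overlapped. An island lay within 500 bp of 79.3% of starts in both peaks, 75.9% in K27M alone, 66.7% in EZHIP alone, 39.6% of member starts in no peak and 28.9% of starts in regions without a peak, beside 54.2% of all autosomal starts. The intervals of K27M alone (70.8 to 80.5%) and EZHIP alone (57.6 to 74.9%) overlapped here too. Among gene starts of promoter regions, those with an island within 500 bp lay in a residual peak in 792 of 1526 cases (51.9%), and those without in 240 of 1791 (13.4%).

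**Figure D3:**
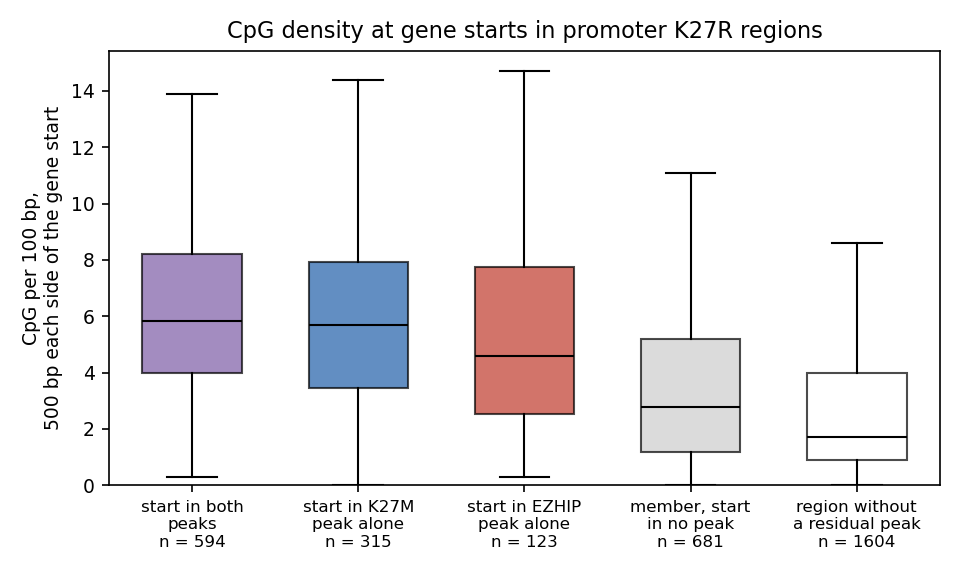
CG dinucleotides per 100 bp within 500 bp on each side of the gene start, for starts of promoter K27R regions grouped by the residual peak they lay in. Boxes run from the first to the third quartile with the median as a line, and whiskers reach the last value within 1.5 box lengths; the medians fall from 5.84 for starts in both peaks to 1.70 for regions without a residual peak.

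Short words in the 300 bases around the start (250 before it and the rest after, both strands) gave the same order for words made of CG. CGCG was found in 68.0% of starts in both peaks, 64.1% in K27M alone, 56.9% in EZHIP alone, 34.8% of member starts in no peak, 27.7% of starts in regions without a peak and 47.4% of all autosomal starts. GCGCGC, which contains CGCG, was found in 26.3%, 25.7%, 19.5%, 11.0%, 9.29% and 17%. TATAAA was found in 9.43%, 7.62%, 12.2%, 10.1%, 16.2% and 13.5%, and the intervals of starts in both peaks (7.20 to 12.1%) and of starts in regions without a peak (14.4 to 18.1%) did not overlap. GAGAGA was found in 24.6%, 26.3%, 19.5%, 27.8%, 26.9% and 23.4%. A match is a string of letters, and binding was not measured.

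Inside a member, the residual peak also took the part rich in CG. The median density was 2.29 CG per 100 bp within K27M peaks and 1.07 in the rest of the same regions, and the peak was the denser in 863 of 963 members with both parts (89.6%). For EZHIP the medians were 2.27 and 1.10, and the peak was denser in 752 of 914 (82.3%). K27M peaks overlapped 1191 of 1665 islands in their members (71.5%), and EZHIP peaks 956 of 1505 (63.5%). Among the nearest peaks, 1 per member, an island lay in 90.7% of K27M peaks over a start and in 46.6% of those off it. For EZHIP the shares were 88.4% and 37.1%. Over all residual peaks in members, an island lay in 76.8% of 1108 K27M peaks and in 58.7% of 1255 EZHIP peaks. Where a peak over a start held 1 island, its midpoint was a median of 0.59 kb from the island midpoint and 0.75 kb from the start for K27M, and 0.55 kb and 0.61 kb for EZHIP. The length covered by K27M peaks had a Spearman rho of 0.40 with the summed island length and 0.38 with region width over 969 members; for EZHIP they were 0.35 and 0.33 over 918. Region width is shared by these measures.

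Gene groups differed in how many of their starts kept the mark. The 3321 gene starts in promoter regions included 1033 in a residual peak (31.1%), 27.4% in a K27M peak and 21.6% in an EZHIP peak. Over all 21418 autosomal protein-coding starts, 28.2% lay in a K27R region, 8.94% in a K27M peak and 7.96% in an EZHIP peak. Transcription factors of development stood above that share. Of 41 homeobox starts 34 lay in a residual peak (82.9%, 67.9 to 92.8%), of 22 forkhead, Sox, T-box and Gata starts 18 (81.8%), of 17 basic helix-loop-helix starts 11 (64.7%, 38.3 to 85.8%), and of 16 developmental zinc finger starts 11 (68.8%, 41.3 to 89.0%). These lists also lie in wider K27R domains that are not members, with 104 homeobox starts in regions of 100 kb or more. Factors of this kind set cell identity in the embryo, and they are textbook Polycomb targets.

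**Figure D4:**
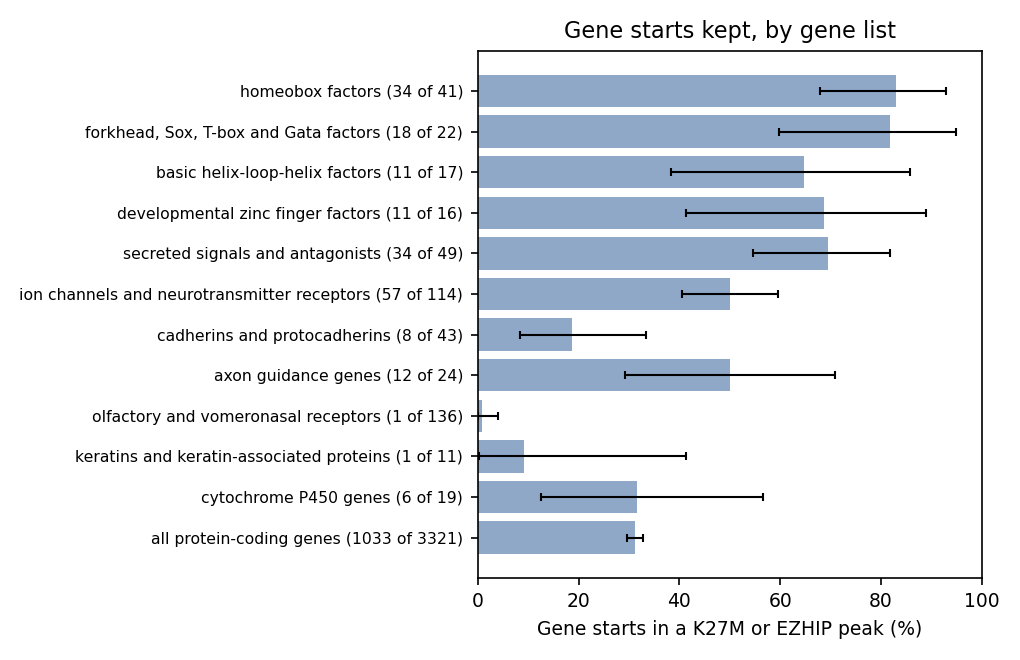
Percent of gene starts that lay in a K27M or EZHIP peak, for gene lists with at least 10 starts in promoter K27R regions below 100 kb, with counts beside the names. Bars start at 0 and error bars are 95% Clopper-Pearson intervals of counting error; homeobox genes (82.9%) and olfactory and vomeronasal receptors (0.735%) form the ends of the range, and all protein-coding genes stand at 31.1%.

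The homeobox genes with the widest shared peak were Nkx2-5, a heart regulator, Lhx4, a LIM factor of pituitary and motor neurons, and Nkx3-2, a skeletal regulator. At Nkx2-5 a K27M peak of 53.6 kb and an EZHIP peak of 47.8 kb covered the start within a K27R region of 90.8 kb. At Lhx4 the K27M peak was 51.6 kb wide and the EZHIP peak 44.6 kb. Nkx3-2 had a K27M peak of 53.4 kb and an EZHIP peak of 32.2 kb, the narrowest EZHIP peak of the 3. Sox2, a factor of pluripotent and neural stem cells, kept 62.0% of its 64.8 kb region in K27M and 58.3% in EZHIP. Foxa1, a pioneer factor of endoderm, kept 55.5% in K27M and 29.9% in EZHIP. Neurog2, a proneural factor, kept 70.4% and 56.5%, and Bhlhe22, a factor of neurons, 82% and 44%. Prdm12, a regulator of sensory neurons, kept 83.3% in K27M and 79.5% in EZHIP. Fezf1, a forebrain factor, kept 59.3% and 17.7%.

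Secreted signals and their antagonists kept 34 of 49 starts (69.4%, 54.6 to 81.7%), 29 in K27M and 23 in EZHIP. Wnt3a, a Wnt ligand, had the widest EZHIP peak over a start among all members (54.8 kb), under a K27M peak of 71 kb. No residual peak held the start of its neighbour Wnt9a in the same region of 86 kb. Rspo1, which enhances Wnt signals, kept 57.8% of its region in K27M and 77.0% in EZHIP. Shh, the hedgehog ligand, kept 39.5% and 23.5%.

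By their shares alone, ion channels and neurotransmitter receptors and axon guidance genes lay between these lists and the 31.1% over all starts. Cadherins and protocadherins, a list not limited to nerve cells, lay under that share. The intervals of the axon guidance genes and of the cadherins below include that 31.1%. Ion channels and neurotransmitter receptors kept 57 of 114 starts (50%, 40.5 to 59.5%), with 56 in K27M and 29 in EZHIP. Grin1, the obligate NMDA receptor subunit, lay in a region of 42.6 kb covered to 93.9% by K27M peaks and to 88.3% by EZHIP peaks. Kcnj10, an inward rectifier potassium channel of glia, shared a region with Kcnj9, of which K27M covered 73.1% and EZHIP 84.3%. Axon guidance genes kept 12 of 24 starts (50%, 29.1 to 70.9%), among them Sema6b, a semaphorin, with 82.4% of its region covered in K27M and 79.8% in EZHIP. Cadherins and protocadherins kept 8 of 43 (18.6%, 8.39 to 33.4%), and 35 of the 43 starts lay in regions without a residual peak, beside 1606 of 3321 over all starts. Those that kept it included Celsr3, an atypical cadherin of planar polarity, with 66.7% of the region in K27M and 37.4% in EZHIP.

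Olfactory and vomeronasal receptors are expressed in sensory neurons of the nose. In the promoter regions below 100 kb nearly all of them were without a residual peak at their starts. A further 140 receptor starts in wider K27R regions were not counted here. They kept 1 of 136 starts (0.735%, 0.0186 to 4.03%). That gene was Olfr222, in a K27M peak of 23 kb and an EZHIP peak of 10.8 kb. A further 9 receptor starts lay in members but in no residual peak, and 126 in regions without one. Over all 3321 starts these counts were 682 and 1606. Keratins and keratin-associated proteins kept 1 of 11 starts, that of Krt83, a hair keratin; the interval of this share (0.230 to 41.3%) includes the 31.1% over all starts. Cytochrome P450 genes kept 6 of 19 (31.6%), near the share over all starts. Among them were Cyp27b1, which activates vitamin D, and Cyp26a1, which degrades retinoic acid and kept 97.5% of its 8 kb region in K27M and 50% in EZHIP. Ribosomal and proteasome genes had 7 starts in promoter regions and kept 0 of them in a residual peak. The interval of this share (0 to 41.0%) also includes the 31.1% over all starts. Of the 7, 5 lay in members, beside 51.6% of all gene starts in promoter regions. The 1 fibroblast gene in a K27R region was Pdgfra, a receptor of platelet-derived growth factor in mesenchymal cells. Its start lay in a K27M peak of 11.8 kb and an EZHIP peak of 7 kb in a region of 35.2 kb.

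**Figure D5:**
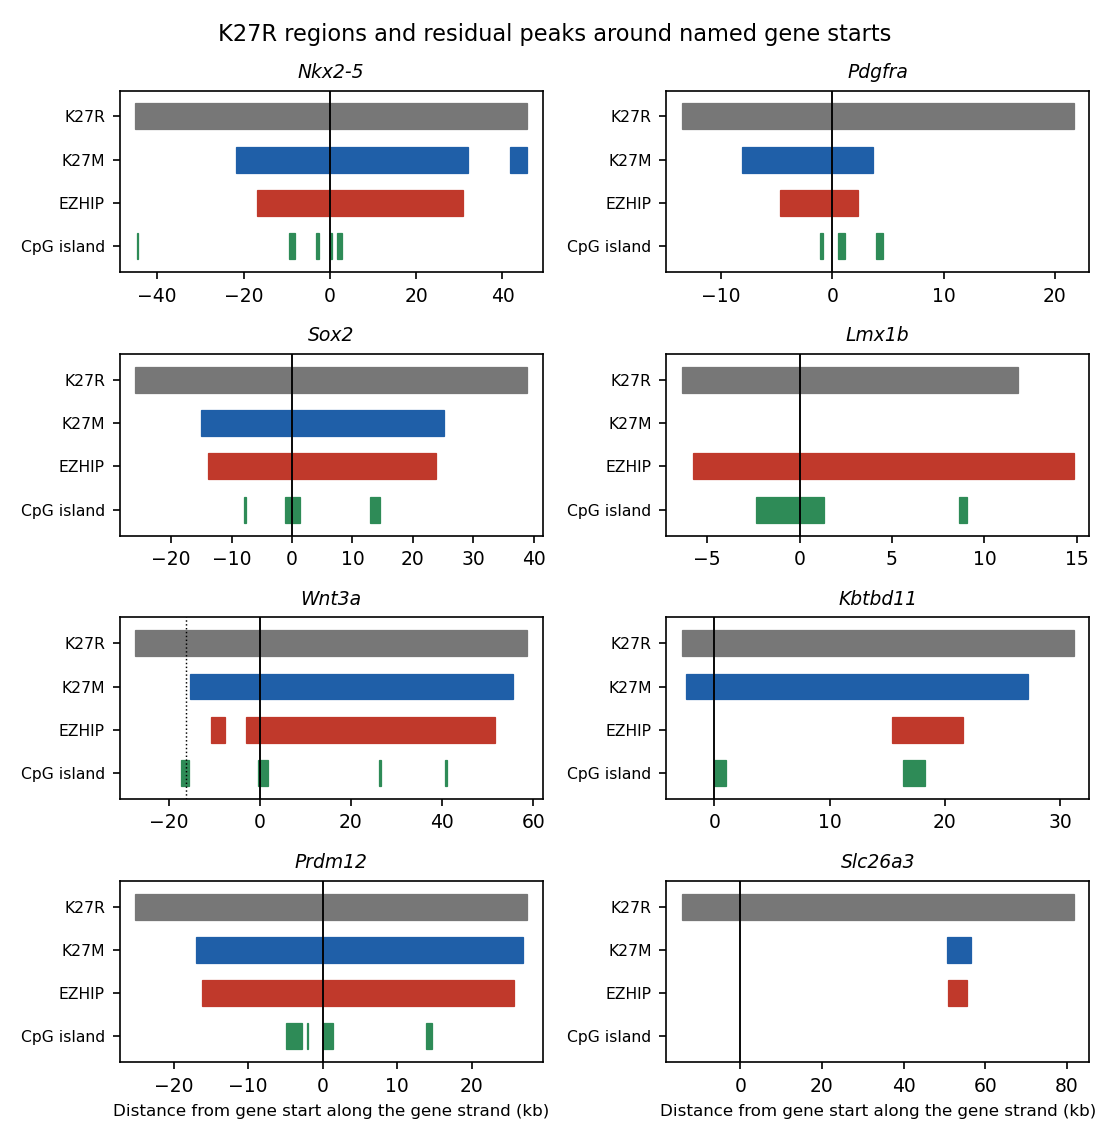
K27R regions (grey), K27M peaks (blue), EZHIP peaks (red) and CpG islands (green) around 8 gene starts, against the distance from the start in kb along the gene strand; the solid line is the start and the dotted line another gene start of the region. At Nkx2-5, Sox2, Wnt3a, Prdm12 and Pdgfra both residual peaks lie over the start, at Lmx1b and Kbtbd11 those of one list do, and at Slc26a3 neither.

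The members with the highest cover and with the largest difference between the lists were as follows. Ramp2, a partner of the calcitonin receptor-like receptor, was covered to 100% by both lists in a region of 5.6 kb. Kcnh3, a voltage-gated potassium channel, was covered to 100% by K27M and 93.9% by EZHIP peaks over 19.8 kb. The region of Gm10801 and Gm10800 was covered fully too, but 30.3% of its words occurred once in mm9. The widest K27M peak over a start, 73.8 kb at Tmem181b-ps, lay in a region with 11.8% of such words. Among regions of at least 10 kb, the largest excess of K27M cover was at A530032D15Rik (98.7% against 0%), with 12.6% of words found once. Kbtbd11 had 87.1% against 18.2%. At Kbtbd11 the K27M peak covered the start and the EZHIP peak lay 15.4 kb downstream. The largest excess of EZHIP cover was at Lmx1b, a LIM homeobox factor of dorsal limb, where 96.7% of 18.2 kb was covered by EZHIP peaks and 0% by K27M peaks. Fam135b (89.4% against 24.2%) and Cyp17a1, a steroid hydroxylase (56.1% against 0%), followed.

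Values at the limits of the rule were as follows. The widest members measured 99.8 kb, 1 around the lysozyme genes Lyz1 and Lyz2 and 1 around Ifi27l2a, Ifi27l2b and Ppp4r4. Just outside, the promoter regions of Sfi1 and Rasgef1c measured 100 kb, of which K27M peaks covered 82% and 42% and EZHIP peaks 71.6% and 28.4%. The share of words found once in mm9 was not counted for these regions. The smallest overlaps were EZHIP peaks over 800 bp of the 2610019F03Rik region and over 1200 bp of the region of Slc40a1, the iron exporter ferroportin. The widest promoter region without a residual peak, 99.6 kb, held the adhesion receptor genes Gpr115 and Gpr111. Among members with 2 or more gene starts, every start lay in a residual peak in 67 of 347 (19.3%), some in 193 (55.6%) and none in 87 (25.1%).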

How the data were processed

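H3K27me3 peak lists of 3 MEF lines, 1 library each, were analysed. Per the labels, chromatin of crosslinked cells was cut to mononucleosomes by MNase and precipitated with a Cell Signaling antibody (C36B11, tagged H2K27me3 in the labels and H3K27me3 in the titles). By the study's methods and the submitters' notes, reads were aligned with Bowtie 1.0.0 to mm9 and to a second genome for scaling, broad peaks were called by the authors with MOSAiCS-HMM using a false discovery rate, maximum gap, minimum size and read threshold, and tracks were made with deepTools. Whether scaling entered the calls, and whether the deposited lists come from the settings in the methods, is not given in the sources used here. The deposited lists gave positions only, on a grid of 200 bp, with no counts, score or p-value, so that depth is unknown and no test was run. Positions are printed from 1.

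Gene starts were the 5′ ends of 21418 autosomal protein-coding genes of the GENCODE annotation of NCBIM37 (mm9). CpG islands were found by scoring 17 for each CG and -1 for other bases, and segments were kept if over 200 bp long, with G+C of 50% or more and CG at over 0.6 of the number expected from base content, which gave 25459 autosomal islands. Shares have 95% exact Clopper-Pearson intervals and medians 95% order-statistic intervals. Intervals cover counting error only. Regions read as repeated were those with under 50% of 31-base words, taken every 10 bp, found once in mm9. Simulated lists were used to check the interval tools, with 0 disagreements over 50 lists, and the island finder recovered 100% of 200 planted islands.

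The members, the 13 gene lists and the tests were chosen with earlier results of these data known. Named regions were the widest peaks over a start, the highest cover in both lists, the farthest peaks, the largest differences between lists, those next to the limits of the rule, and up to 3 genes per list with the widest shared peak; sequences were the first of these, except that far peaks are shown by Slc26a3, the first of them with at least 90% of words found once. One named region is not reported here. Alternatives were other starts, start distance, peak widths, overlap, merging, width limits and island length; leaving out repeated regions was added after the data were seen. Python 3.11.15, numpy 2.4.6, pandas 2.3.3, scipy 1.17.1, numba 0.67.0 and matplotlib 3.10.9 were used.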

Additional observations from a re-analysis of the deposited data

How the results depend on the processing

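Of 110 values under 10 alternatives, 72 stayed within the interval of the reported value, or within 1.5 times it for the number of members, and 38 moved; the cause was not tested beyond what each setting changes by construction. The median distance of either residual peak to the nearest start was left out of these counts, since it is 0 bp whenever most peaks lie over a start. All counted values stayed within these limits with 50% overlap, where 1155 members remained, and without repeated regions. Some of the 72 could not move. Island length entered the island shares alone. Merging left the members, the kept share and the island shares unchanged, although a filled gap could have added a member. The count of 72 is therefore no measure of how stable the results were. The kept share of 47.8% became 45.6% with all transcript starts, 44.2% and 30.3% (733 members) with residual peaks of at least 2000 and 5000 bp, 40.0% (670 members) below 50000 bp and 58.7% (2016 members) with no width limit. The share of members with a start in a K27M peak rose to 86.4% with a start within 1000 bp, 83.0% with 2000 bp peaks and 88.5% with 5000 bp peaks. Within 1000 bp means that a start up to 1000 bp outside a peak or region counted as in it, so that this share includes starts beside a peak. That of EZHIP was 72.1% with transcript starts, 78.1% within 1000 bp, 72.6% and 80.6% with wider peaks and 72.2% with no limit. The covered share was 27.3% (K27M) and 19.7% (EZHIP) with 5000 bp peaks, 25.8% and 19.3% below 50000 bp, and 15.6% and 11.9% with no limit. The ratio of start to region cover was 2.91 and 3.32 within 1000 bp, 2.37 and 2.57 with 5000 bp peaks, 2.48 and 2.54 below 50000 bp, 2.92 and 3.14 with no limit, and 2.68 for EZHIP after merging. The ratio within 1000 bp sets starts up to 1000 bp from a peak against region cover that was not extended. Part of its rise is thus built in. Members with an island made up 85.0% within 1000 bp, 91.3% with 5000 bp peaks, 89.1% with no limit and 70.2% with islands of at least 500 bp. Regions without a residual peak held one in 39.0% with transcript starts, 51.8% with 5000 bp peaks and 22.6% with 500 bp islands. No paired analysis was possible because each group had 1 library and no test was run. Weak residual signal below the caller's threshold is not in the lists, and with no control library analysed here, a residual peak could not be set against the parental cells.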
